A study of Homo sapiens with 18 samples.

Results

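The aldo-keto reductase genes AKR1C1, AKR1C2, AKR1C3, AKR1C4, AKR1B1 and AKR1B10, 6 of the 38716 gene symbols listed, were followed in every one of 18 libraries of messenger RNA and of ribosome footprints. They were selected on earlier results of the same data, namely their higher levels in cells treated with the compound abbreviated ICM (inflachromene). Every comparison of these 6 genes that involves ICM libraries is therefore given as a description, without a test, and only the comparison of old with young cells was tested. AKR1B15, a close copy of AKR1B10 that was not among the selected genes, is given beside it where reads could be shared.

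The cells were IMR90, a line of fetal human lung fibroblasts that stops dividing after long passaging. The groups were young cells (low passage, untreated as far as the labels say), old cells (high passage, senescent) and ICM cells (low passage, treated with ICM, with no dose or time in the labels of these libraries). Each group had 3 mRNA-seq and 3 Ribo-seq libraries, and Ribo-seq sequences the stretches of mRNA that ribosomes shield from nuclease. According to the methods, each of the 3 replicates was grown separately, lysed with cycloheximide, and divided between both assays, so a young, old or ICM replicate number names 1 lysate.

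Aldo-keto reductases are soluble enzymes that use NADPH to reduce aldehydes and ketones to alcohols. The AKR1C enzymes act on steroid hormones, prostaglandins and bile acid precursors as well as on reactive carbonyls, and the AKR1B enzymes act on glucose, retinal and aldehydes formed from oxidised lipids. Several of these genes are known targets of NRF2, the transcription factor that switches on detoxifying and antioxidant enzymes under electrophilic stress.

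In the gene models of GENCODE release v44lift37 on GRCh37, the AKR1C genes lie in 1 cluster, AKR1C1 at chr10:5005445-5025475 on the forward strand, AKR1C2 at chr10:5029967-5060223 on the reverse strand, AKR1C3 at chr10:5077546-5149878 forward and AKR1C4 at chr10:5237425-5260912 forward. AKR1B1 (chr7:134127108-134144036, reverse), AKR1B10 (chr7:134212319-134226164, forward) and AKR1B15 (chr7:134233862-134264627, forward) are neighbours on another chromosome. The canonical transcripts of the 4 AKR1C genes each have 9 coding exons and a coding sequence (CDS) of 969 bases without the stop codon. AKR1C1 and AKR1C2 differ at 19 of these bases (98.0% identity), AKR1C1 and AKR1C3 at 83 (91.4%) and AKR1C1 and AKR1C4 at 111 (88.5%). AKR1B1 and AKR1B10 share 75.2% of 948 coding bases.

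The stretches that follow show why reads of these genes are also given summed. The first is the earliest run of 60 coding bases, within a single exon, where the 4 AKR1C copies differ least. It covers CDS bases 163 to 222 (AKR1C1 at chr10:5008184-5008243, forward strand) and is the same in all 4 genes.
AKR1C1 to AKR1C4: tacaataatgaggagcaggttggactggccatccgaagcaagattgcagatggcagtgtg
The second is the run of the same length where they differ most, CDS bases 865 to 924, at chr10:5018061-5018120 in AKR1C1, chr10:5034028-5034087 in AKR1C2 (reverse strand), chr10:5147805-5147864 in AKR1C3 and chr10:5258692-5258751 in AKR1C4. Capitals mark the 20 positions where the 4 genes are not all alike.
AKR1C1: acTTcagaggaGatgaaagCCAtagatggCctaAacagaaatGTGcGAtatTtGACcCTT
AKR1C2: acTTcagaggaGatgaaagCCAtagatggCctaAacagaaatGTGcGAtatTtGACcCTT
AKR1C3: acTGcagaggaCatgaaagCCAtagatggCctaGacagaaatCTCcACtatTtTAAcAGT
AKR1C4: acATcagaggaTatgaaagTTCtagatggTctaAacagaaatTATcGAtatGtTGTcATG
AKR1C1 and AKR1C2 are identical even there. Of the 940 windows of 30 bases in the AKR1C1 CDS, about the length of a footprint, 71.3% occur unchanged in another of the 7 genes, against 71.4% for AKR1C2, 33.8% for AKR1C3 and 22.8% for AKR1C4. The share was 33.9% for AKR1B10 (with AKR1B15) and 0% for AKR1B1, whose windows occur in no other of the 7.

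Levels are given as CPM, reads per 1000000 of a library size scaled by the trimmed mean of M-values (TMM), from reads in untranslated regions (UTRs) and CDS for mRNA-seq and in the CDS alone for Ribo-seq. The mRNA-seq libraries held between 7902427 and 14144455 such reads and the Ribo-seq libraries between 46239 and 1718521. Young replicate 1 and old replicate 2 stood apart in Ribo-seq. They held 54421 and 54708 CDS reads, and the CDS took 34.4% and 15.0% of their reads, against 54.7% to 88.8% in the other 7 libraries. Low depth was not particular to them, since the ICM Ribo-seq libraries held 225041, 78980 and 46239 CDS reads. The remaining young and old libraries held 583798 to 1718521. Without the 2 libraries, depth and ICM treatment therefore cannot be told apart in Ribo-seq. Ribo-seq values are given with all libraries, and those of the AKR1C sum, AKR1B1, AKR1B10 and the gene lists also without these 2. All 10 fibroblast markers exceeded 1 CPM in mRNA-seq, with a summed level of 29202 to 33180 CPM in young, 27797 to 31259 in old and 12478 to 12992 in ICM cells. No epithelial and no hepatocyte marker exceeded a mean of 1 CPM (0 of 4 in each list), and 1 of 4 endothelial (VWF, 1.47 CPM) and 1 of 4 leukocyte markers did (CD68, 37.5 CPM). The summed leukocyte markers ran from 19.8 to 21.9 CPM in young, 33.0 to 36.0 in old and 54.5 to 66.8 in ICM cells, and the summed endothelial markers from 0.600 to 0.698, 0.834 to 1.03 and 3.58 to 4.52. Their part in the results was not tested. These are bulk samples, in which fewer cells that express a gene and less RNA per cell cannot be told apart.

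In young cells the most abundant mRNA of the 6 was AKR1B1, aldose reductase, the enzyme that turns glucose into sorbitol. Per kilobase of CDS, with CDS reads only, AKR1B1 had 138 ± 3.55 CPM per kb (SD, n = 3), AKR1C1 12.5 ± 0.808, AKR1C2 10.2 ± 1.19 and AKR1C3 2.40 ± 0.601. AKR1B10 and AKR1C4 followed at 1.01 ± 0.175 and 0.969 ± 0.304, and these neighbours in the order overlapped between libraries. In ICM cells the order was AKR1C1 (1317 ± 75.0), AKR1C2 (1128 ± 59.6), AKR1B1 (921 ± 73.6), AKR1C3 (198 ± 13.3), AKR1C4 (97.6 ± 5.81) and AKR1B10 (90.6 ± 3.04 CPM per kb). AKR1C1 and AKR1C2 thus stood above AKR1B1 in ICM cells and below it in young and old cells, where AKR1B1 had 169 ± 16.1 and AKR1C1 7.79 ± 1.92 CPM per kb in old cells.

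AKR1C1, which inactivates progesterone, had mRNA levels of 13.9, 14.8 and 17.2 CPM in the young libraries, 7.35, 7.90 and 11.4 in the old and 1710, 1771 and 1679 in the ICM libraries. The groups did not overlap, with old lowest and ICM highest. The fitted ICM level was 112-fold that of young cells (log2 6.81, SE 0.11) and 195-fold that of old cells (log2 7.60, SE 0.11).

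AKR1C2, which inactivates dihydrotestosterone, ran beside it, at 10.5, 13.1 and 14.4 CPM in young, 6.34, 6.96 and 9.58 in old and 1369, 1434 and 1340 in ICM cells (log2 6.76 against young, SE 0.11). AKR1C3, which makes testosterone and F-type prostaglandins, had 3.21, 2.47 and 2.19 CPM in young, 1.47, 1.38 and 1.47 in old and 193, 206 and 181 in ICM cells (log2 6.23 against young, SE 0.11). AKR1C4, the form typical of liver, had 1.26, 0.872 and 0.683 CPM in young, 0.538, 0.593 and 1.05 in old and 92.2, 101 and 90.6 in ICM cells (log2 6.70 against young, SE 0.14). Young and old libraries overlapped for AKR1C4 and not for AKR1C2 or AKR1C3. AKR1C4 rested on few reads outside ICM cells, between 5 and 11.3 per library, against 1069 to 1227 in ICM libraries.

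Summed over AKR1C1 to AKR1C4, which keeps shared reads inside the sum, the mRNA level was 28.8, 31.2 and 34.5 CPM in young, 15.7, 16.8 and 23.5 in old and 3365, 3513 and 3290 in ICM libraries. The summed level in ICM cells was 107-fold that in young (log2 6.74, SE 0.11) and 182-fold that in old cells (log2 7.50, SE 0.11). The 4 genes took 0.350% ± 0.00712 of all counted mRNA-seq reads in ICM cells, 0.00320% ± 0.000286 in young and 0.00178% ± 0.000407 in old cells.

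**Figure D1:**
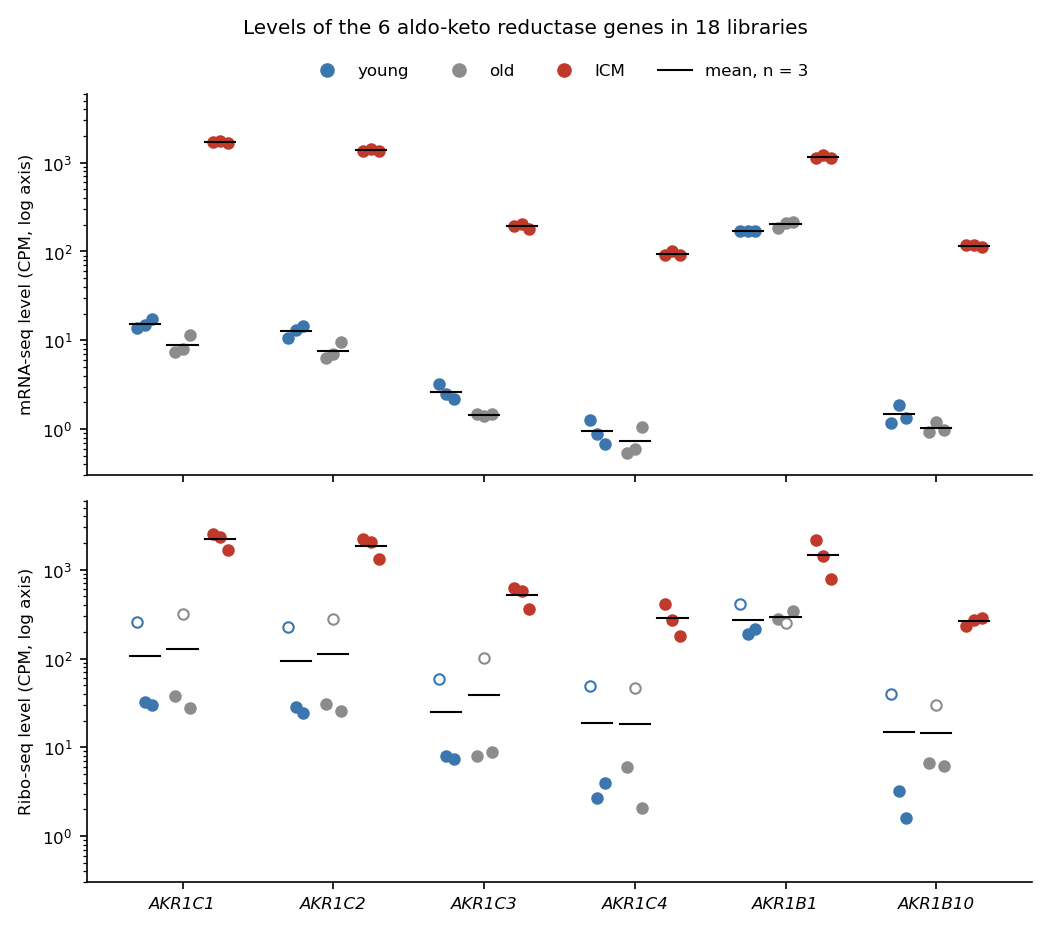
mRNA-seq (upper) and Ribo-seq (lower) levels in CPM on log axes for the 6 genes, 1 point per library, coloured by group, with a bar at the mean of 3. Open points are young replicate 1 and old replicate 2 of Ribo-seq, which lie above the other young and old libraries for the AKR1C genes and AKR1B10, and ICM points lie above all others in every panel column.

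AKR1B1 started from a higher level and differed less. Its mRNA stood at 168, 170 and 170 CPM in young, 182, 212 and 217 in old and 1130, 1232 and 1122 in ICM libraries, 6.85-fold above young (log2 2.78, SE 0.07) and 5.70-fold above old cells (log2 2.51, SE 0.07). The 3 groups did not overlap, and here old libraries lay above young ones. AKR1B10, which reduces retinal and lipid aldehydes and is normally found in the gut, had 1.18, 1.87 and 1.33 CPM in young, 0.914, 1.21 and 0.973 in old and 117, 119 and 111 in ICM cells. Its ICM level was 75.0-fold that of young cells (log2 6.23, SE 0.12), with young and old libraries overlapping. AKR1B15 reached 43.0 ± 2.26 CPM in ICM cells from 0.871 ± 0.174 in young and 0.868 ± 0.242 in old cells.

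Over the 9 mRNA-seq libraries AKR1C1 took 46.8% to 51.0% of the summed AKR1C reads, AKR1C2 36.4% to 41.9%, AKR1C3 5.49% to 11.1% and AKR1C4 1.98% to 4.48%. In mRNA-seq, AKR1C1 took 50.8% ± 0.307 of the summed reads in ICM cells, AKR1C2 40.7% ± 0.0750, AKR1C3 5.71% ± 0.194 and AKR1C4 2.79% ± 0.0754. In young cells the shares were 48.4% ± 1.29, 40.0% ± 3.19, 8.47% ± 2.44 and 3.05% ± 1.22, and in old cells 47.4% ± 0.902, 40.9% ± 0.463, 7.95% ± 1.57 and 3.81% ± 0.582. In Ribo-seq of ICM cells they were 45.5% ± 1.79, 38.2% ± 0.655, 10.5% ± 0.442 and 5.75% ± 1.17, so AKR1C3 and AKR1C4 took larger shares of footprints than of mRNA reads in every ICM lysate. This did not hold in every other lysate, since AKR1C3 took 11.1% of mRNA reads and 10.0% of footprints in young replicate 1, and AKR1C4 4.48% and 3.23% in old replicate 3. The mRNA-seq shares count UTR reads, of which AKR1C3 and AKR1C4 had few.

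**Figure D2:**
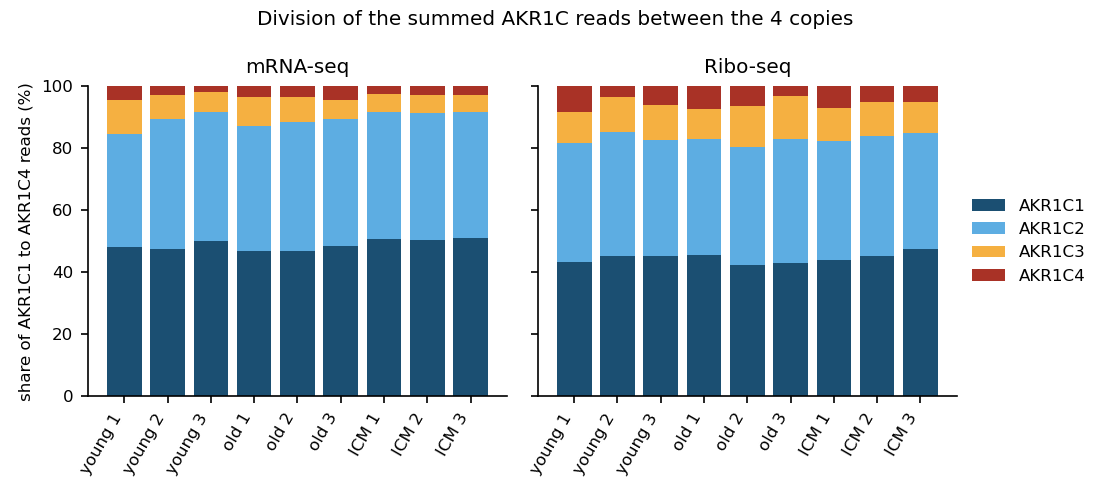
Share (%) of the summed AKR1C1 to AKR1C4 reads given to each copy in each of 9 mRNA-seq (left) and 9 Ribo-seq (right) libraries, as stacked bars. AKR1C1 and AKR1C2 together take most of the reads in every library, and AKR1C3 and AKR1C4 have wider bands in Ribo-seq than in mRNA-seq in the 3 ICM libraries.

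Where on the transcripts the reads lay differed between copies. Of the mRNA-seq reads of AKR1C1 over all 9 libraries, 25.7% were in the 5′ UTR or 3′ UTR, and the share was 20.8% for AKR1C2, 24.2% for AKR1B1 and 25.9% for AKR1B10. AKR1C3 had 0.779% there, 49 reads in the 5′ UTR and 6 in the 3′ UTR beside 7007 in the CDS. AKR1C4 had no 5′ UTR read and 0.667 of a read in the 3′ UTR beside 3439 in the CDS, a share of 0.019%. The v44lift37 model of AKR1C4 has 31 bases of 5′ UTR and 192 of 3′ UTR, but the models behind the counts are not known. The AKR1C1 model has 30 and 5544 such bases, where 8219 and 7847 reads were counted. CDS values that were not whole numbers, which can arise when a read is divided between features, occurred in 9 of 9 mRNA-seq libraries for AKR1C2, 8 for AKR1C1, 7 for AKR1C3, 4 for AKR1C4 and 0 for AKR1B1. The files do not say why these values are fractional. The single values of AKR1C3 and AKR1C4 are uncertain, and so is the split between AKR1C1 and AKR1C2.

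Footprints were compared next. The summed AKR1C level in Ribo-seq was 594, 71.9 and 65.5 CPM in young, 81.8, 744 and 63.6 in old and 5812, 5229 and 3562 in ICM libraries. The values of 594 and 744 CPM are those of young replicate 1 and old replicate 2, 8.65 and 10.2 times the mean of the other 2 libraries of their group, and rest on 30 and 37 reads. With all libraries the mean ICM level was 20.0 times the young and 16.4 times the old mean, and without those 2 libraries it was 70.8 and 67.0 times. The fitted change, which weights libraries by depth, was log2 5.63 against young (SE 0.49, 49.6-fold) and log2 5.35 against old cells (SE 0.49). Without the 2 libraries it was log2 6.05 and 5.88. The value against young cells was 4.35 with DESeq2 and 4.78 at its lowest as single lysates were left out (young replicate 3).

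The single copies followed the sum. AKR1C1 footprints were 257, 32.5 and 29.7 CPM in young, 37.3, 315 and 27.4 in old and 2552, 2362 and 1690 in ICM cells. AKR1C4 footprints were 49.5, 2.66 and 3.92 CPM in young, 6.04, 46.9 and 2.05 in old and 413, 268 and 179 in ICM cells, from 1 to 8.5 reads per young or old library. AKR1B10 footprints were 39.6, 3.20 and 1.59 CPM in young, 6.64, 30.2 and 6.16 in old and 231, 273 and 285 in ICM cells, with 1.5 to 9.33 reads per young or old library. In each of the AKR1C genes and in AKR1B10 young replicate 1 and old replicate 2 were the highest of their group and stayed below every ICM library. Without these 2 libraries the mean AKR1B10 level in ICM cells was 110 times the young and 41.1 times the old mean, against 17.8 and 18.4 times with them.

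AKR1B1 footprints were 416, 189 and 216 CPM in young, 279, 252 and 344 in old and 2189, 1432 and 788 in ICM libraries, log2 2.83 above young (SE 0.25) and 2.39 above old cells (SE 0.25), and log2 2.84 and 2.22 without the 2 libraries. For AKR1B1, young replicate 1 was 2.05 times the mean of the other young libraries and old replicate 2 was 0.807 times that of the other old ones. The genes whose mRNA pattern was most like the AKR1C sum, AKR1B1 or AKR1B10 (named further down) gave a measure of whether the 2 libraries were high for them too. HMOX1 footprints were 3.45 and 5.40 times the mean of the other libraries of their group there, OSGIN1 1.57 and 2.42 times, EPHX1 1.37 and 2.33 times, ALAS1 1.74 and 1.22 times, and SQSTM1 1.64 and 1.04 times. KYNU was at 15.9 and 3.41 times, AKR1B15 at 15.5 and 6.18, F2RL2 at 1.92 and 3.99, CABYR at 2.30 and 1.60, ALDOC at 1.47 and 1.18, DAB2 at 1.16 and 0.954, and ENDOV at 0 in both. Of these, OSGIN1, KYNU, AKR1B15, CABYR and ALDOC rest on 1 to 5 reads in each of the 2 libraries, and ENDOV on 0. SLCO2B1 and CYP19A1 had 0 reads in every young and old Ribo-seq library and give no ratio. Whether reads of ICM libraries had reached these 2 libraries was not tested.

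The ratio of Ribo-seq CDS CPM to mRNA-seq CDS CPM in the same lysate describes footprints per mRNA. For the AKR1C sum it was 24.6, 2.85 and 2.50 in young, 5.94, 51.5 and 3.09 in old and 2.18, 1.87 and 1.42 in ICM lysates. Young replicate 1 and old replicate 2 were again far above the rest, while the mRNA levels of these lysates (28.8 and 16.8 CPM) lay with those of their groups. For AKR1B1 the ratio was 3.12, 1.44 and 1.70 in young, 1.96, 1.49 and 2.03 in old and 2.55, 1.51 and 0.971 in ICM lysates, overlapping between all groups. For AKR1B10 it was 37.6, 3.06 and 2.09, then 8.82, 28.1 and 8.30, and 2.68, 3.08 and 3.45. In the fit of translational efficiency (the change in Ribo-seq beyond that in mRNA-seq), the ICM value of the AKR1C sum was log2 -1.08 against young (SE 0.49) and -2.28 against old cells (SE 0.50), that of AKR1B1 0.02 (SE 0.25) and -0.25 (SE 0.25), and that of AKR1B10 0.15 (SE 0.89) and -2.08 (SE 0.74). Without the 2 lysates they were -0.69 and -1.64 for the AKR1C sum, -0.02 and -0.37 for AKR1B1, and 0.65 and -1.83 for AKR1B10.

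**Figure D3:**
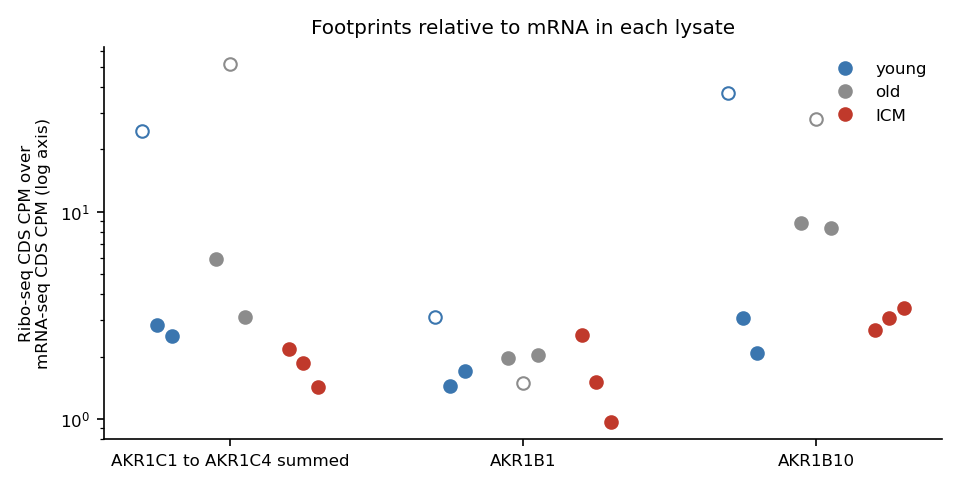
Ratio of Ribo-seq CDS CPM to mRNA-seq CDS CPM in each of 9 lysates (log axis) for the AKR1C sum, AKR1B1 and AKR1B10, coloured by group. Open points are young replicate 1 and old replicate 2, at 24.6 and 51.5 for the AKR1C sum and at 3.12 and 1.49 for AKR1B1.

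Old and young cells were then compared by a test, since the choice of genes had not used that contrast. On the young and old libraries alone, 5 of the 6 genes passed the filter on low counts in mRNA-seq (AKR1C4 did not) and 3 of the 6 in Ribo-seq (AKR1C1, AKR1C2 and AKR1B1), so that the others entered these fits through their ICM libraries. In mRNA-seq, AKR1C1, AKR1C2 and AKR1C3 fell in old cells, AKR1B1 rose, and AKR1C4 and AKR1B10 did not pass the threshold (adjusted p under 0.05, edgeR's quasi-likelihood test with Benjamini-Hochberg adjustment over 13173 genes). AKR1C1 fell by 0.80 on the log2 scale (SE 0.13, adjusted p = 1.72e-05), AKR1C2 fell by 0.74 (SE 0.14, adjusted p = 8.26e-05) and AKR1C3 fell by 0.81 (SE 0.24, adjusted p = 0.00533) in that edgeR fit. AKR1B1 rose by 0.27 (SE 0.07, adjusted p = 0.00217, edgeR), 1.20-fold, in 3 of 3 old libraries against every young one. The AKR1C sum fell by 0.76 (SE 0.11, adjusted p = 4.80e-06, edgeR), to 0.591 of the young level.

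The values of the remaining genes were log2 -0.33 for AKR1C4 (95% interval -1.11 to 0.46, adjusted p = 0.474) and -0.59 for AKR1B10 (-1.19 to 0.0021, adjusted p = 0.0924), and -0.29 for AKR1B10 and AKR1B15 summed (adjusted p = 0.299, edgeR). Of the 5 genes that passed the filter on young and old libraries, 1 was called up and 3 down, beside 32.4% of all tested genes called up and 33.7% called down, so that a call as such was common in this comparison. Without the lysates of young replicate 1 and old replicate 2, AKR1C3 was at -0.62 with an adjusted p of 0.0863 (edgeR). With CDS reads only, AKR1B10 was at -0.09 (adjusted p = 0.854), AKR1B1 at 0.32 (adjusted p = 0.00222) and the AKR1C sum at -0.61 (adjusted p = 0.00031, edgeR). With UTR reads only, an alternative chosen after seeing the data, AKR1B1 was at 0.13 (adjusted p = 0.252) and AKR1B10 at -1.63 (adjusted p = 0.0284, edgeR). AKR1B10 had 16.5 UTR reads over the young and 5.83 over the old libraries, against 1073.5 over the ICM libraries. It entered the UTR fit through its ICM libraries, and its fall there rests on few reads. In the UTR fit AKR1C1 was at -1.29, AKR1C2 at -1.53, AKR1C3 at -2.16 and the AKR1C sum at -1.43 (edgeR, adjusted p = 9.37e-05, 4.31e-05, 0.0448 and 2.37e-06). Of the 55 UTR reads of AKR1C3, 9 were in young, 2 in old and 44 in ICM libraries. AKR1C3 thus also entered that fit through its ICM libraries, and its fall there rests on few reads.

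In Ribo-seq, of the 3 genes that passed the filter on young and old libraries, edgeR called 0 between old and young cells, 0 had an unadjusted p under 0.05, and DESeq2 called 0, beside 19.3% of 4643 tested genes called up and 17.0% called down. The AKR1C sum was at log2 0.28 (SE 0.55, 95% interval -0.84 to 1.40, adjusted p = 0.718, edgeR), an interval that includes the mRNA-seq value. Leaving out old replicate 2 put it at -0.34, leaving out young replicate 2 or 3 put it at -0.18 or -0.42, leaving out young replicate 1 at 0.73, and leaving out both young replicate 1 and old replicate 2 at 0.17. AKR1B1 was at 0.44 (SE 0.26, 95% interval -0.08 to 0.96, adjusted p = 0.177, edgeR), and at 0.48 (adjusted p = 0.0178, edgeR) when only young and old libraries were fitted. Without young replicate 1 and old replicate 2, AKR1B1 passed the threshold at 0.62 (adjusted p = 0.0148, edgeR).

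For translational efficiency, edgeR called 0 of the same 3 genes between old and young cells and DESeq2 0, beside 0.845% of 4618 tested genes called up and 0.606% called down. The unadjusted p was under 0.05 for AKR1C1 (log2 1.23, SE 0.57, adjusted p = 0.331) and AKR1C2 (1.22, SE 0.59, adjusted p = 0.373) in the edgeR fit. AKR1B10, which entered through ICM libraries, was at 2.22 (SE 1.00, adjusted p = 0.320, edgeR). The AKR1C sum was at 1.20 (SE 0.57, adjusted p = 0.367, edgeR). Leaving out young replicate 1 moved it to 1.64 with an adjusted p of 0.00264, leaving out old replicate 2 to 0.46 with 0.737, and leaving out both to 0.95 with 0.0577 (edgeR), so the call rested on which of these lysates was kept.

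**Figure D4:**
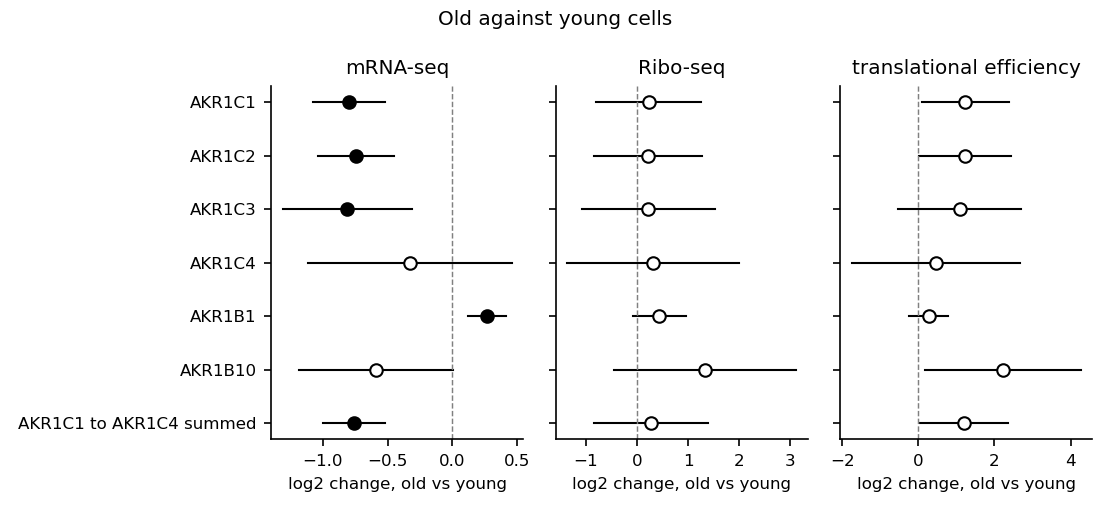
Fitted log2 change of old against young cells for the 6 genes and the AKR1C sum in mRNA-seq, Ribo-seq and translational efficiency, with 95% intervals. Filled points passed an adjusted p under 0.05, which in mRNA-seq were AKR1C1, AKR1C2, AKR1C3, the sum (all below 0) and AKR1B1 (above 0), and none in the other panels. AKR1C4 (all panels) and AKR1C3 and AKR1B10 (Ribo-seq and translational efficiency) passed the filter only with the ICM libraries.

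Other enzymes of the same metabolism were read from lists that did not include the 6 genes. Of 22 tested genes among other reductases and aldehyde enzymes, 4 rose and 8 fell in old against young cells in mRNA-seq, beside 32.4% of all tested genes up and 33.7% down. KCNAB1 and KCNAB2, potassium channel subunits of the aldo-keto reductase fold, rose by 0.75 (SE 0.07) and 0.57 (SE 0.17), as did CBR4 (0.40) and DCXR (0.29), while ALDH3A2, which oxidises fatty aldehydes, was at -1.14 (SE 0.13) and CBR1, a carbonyl reductase, at -0.88 (SE 0.07). In ICM against young cells, 12 of the 22 rose and 8 fell, beside 34.9% of all tested genes up and 36.1% down. AKR1B15 (log2 5.62, SE 0.15) and KCNAB2 (2.65, SE 0.13) had the largest rises among the listed genes averaging 5 CPM or more, and ALDH1B1 (-1.02, SE 0.08) and ALDH7A1 (-0.99, SE 0.07), both aldehyde dehydrogenases, the largest falls. Against old cells 10 rose and 6 fell, beside 30.7% and 32.6%. AKR1B15 is counted among both the 12 and the 10. On the young and old libraries alone, 21 genes of this list passed the filter and AKR1B15 did not. Its rises are therefore a description. The AKR1C and AKR1B values in ICM cells thus stood beside a list with calls in both directions, whose median was log2 0.22 against young cells (all genes -0.01).

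Of 36 tested enzymes of steroid, prostaglandin and retinoid metabolism, 12 rose and 11 fell in old against young cells, shares near those of all tested genes (32.4% and 33.7%), so that this count is not a result about the list. In ICM against young cells 21 rose and 9 fell, beside 34.9% and 36.1%. On the young and old libraries alone, 34 genes of this list passed the filter. HSD11B1, which regenerates active cortisol, rose in ICM cells to 101 ± 5.48 CPM from 3.54 ± 0.436 in young cells (log2 4.83, SE 0.11), and CYP19A1, the aromatase that makes oestrogens, stood at 17.8 ± 1.55 CPM against 0.0608 ± 0.0528. With 0.0556 CPM in old cells too, CYP19A1 could only be called up in ICM cells. PTGIS, prostacyclin synthase, fell by 4.08 (SE 0.10) in ICM cells. In old cells HSD17B2 rose by 4.27 (SE 0.21) and HSD17B6 by 3.02 (SE 0.19), both steroid-oxidising enzymes, while CYP1B1, which hydroxylates oestrogens and xenobiotics, fell by 5.24 (SE 0.13). CYP1B1 had 60.4 ± 4.16 CPM in young, 1.60 ± 0.260 in old and 288 ± 12.9 in ICM cells. Against old cells, 18 of the 36 rose in ICM cells and 4 fell (HSD17B2, HSD17B6, HSD3B7 and RDH5), beside 30.7% and 32.6%.

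NRF2 targets other than the 6 genes showed calls mostly in 1 direction in each comparison. In old against young cells, 17 of 25 fell in mRNA-seq and GCLC and PRDX1 rose, beside 32.4% of all tested genes up and 33.7% down, with a median log2 change of -0.41 (all genes -0.01). NQO1, a quinone reductase, fell by 1.83 (SE 0.07), while GCLC, which makes the precursor of glutathione, rose by 0.43 (SE 0.07) and the peroxidase PRDX1 by 0.29 (SE 0.07). In ICM cells 25 of 25 rose, against young (median 1.86) and against old cells (median 2.26), beside 34.9% and 30.7% of all tested genes up. On the young and old libraries alone, 24 of these targets passed the filter. HMOX1, heme oxygenase, reached 974 ± 67.5 CPM in ICM from 34.8 ± 3.09 in young and 22.4 ± 0.880 in old cells (log2 4.80 against young, SE 0.08), and OSGIN1 220 ± 5.20 from 18.2 ± 0.651 and 11.5 ± 1.36 (log2 3.60, SE 0.08). The counts of called NRF2 targets were the same without young replicate 1 and old replicate 2.

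**Figure D5:**
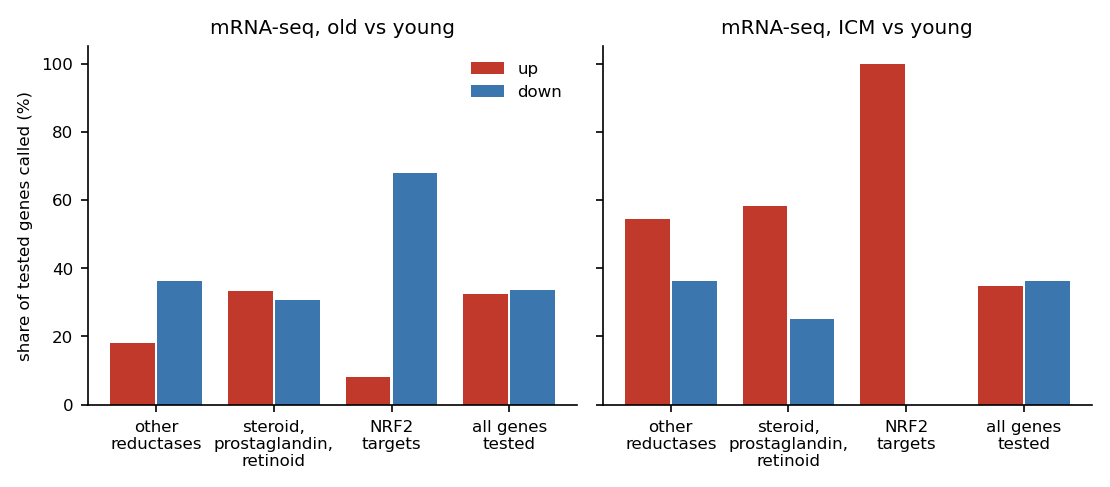
Share (%) of the tested genes of each list called up (red) or down (blue) in mRNA-seq at an adjusted p under 0.05, in old against young (left) and ICM against young cells (right), with all tested genes at the right of each panel. Of the 25 NRF2 targets 17 were called down in old cells and 25 up in ICM cells, and the other lists have calls in both directions.

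In Ribo-seq fewer genes of these lists could be tested. Among the NRF2 targets 23 of 24 rose in ICM against young cells (UGDH, at 0.12, was the exception) and 24 of 24 against old cells, beside 13.7% of all tested genes up and 12.9% down against young and 5.79% up and 7.62% down against old cells. In old against young cells 4 of the 24 rose (FTH1, FTL, OSGIN1 and SRXN1) and 7 fell, beside 19.3% and 17.0% of all tested genes, while DESeq2 called 4, all down. NQO1 fell by 1.51 (SE 0.24) in the edgeR fit. Of 10 other reductases and aldehyde enzymes, AKR1A1, AKR1B15 and CBR1 rose and ALDH7A1 fell in ICM against young cells, AKR1B15 and CBR1 rose and ALDH1B1 fell against old cells, and AKR1A1 rose and ALDH2 and ALDH7A1 fell in old against young cells. AKR1B15 again passed the filter only through ICM libraries, so its rises are a description. Of 11 steroid, prostaglandin and retinoid enzymes, 6 rose in ICM against young cells and PTGES3 fell, CYP1B1, HSD11B1, PTGR1 and RDH10 rose against old cells, and HSD17B12 and PTGS1 rose and CYP1B1 and PTGES3 fell in old against young cells. HSD11B1 is counted in both ICM comparisons. At 9.04 ± 9.55 CPM in young and 10.2 ± 9.15 in old against 164 ± 3.84 in ICM cells, it could only be called up there, so its rises are a description. Without young replicate 1 and old replicate 2 the NRF2 counts were 23 and 24 of 24 up in ICM against young and old cells, and 4 up and 8 down in old against young cells. More genes then passed the filter, 15 other reductases, of which 4 rose and 1 fell in ICM against young cells, 3 and 1 against old cells, and 1 and 2 in old against young cells. Of 21 steroid, prostaglandin and retinoid enzymes 9 rose and 3 fell, 5 and 0, and 3 and 4. DESeq2 called 0 of the 10 reductases and 2 of the 11 steroid, prostaglandin and retinoid enzymes in old against young cells.

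The genes most like each member in pattern were ranked by Pearson's r of log2(CPM + 1) over the 9 mRNA-seq libraries, which form 1 cluster of 3 ICM libraries and another of 6, so that r mostly measures the distance between those clusters and is a description. Out of 10806 genes whose mean reached 5 CPM, the nearest to the AKR1C sum were EPHX1, HMOX1, ALAS1, OSGIN1 and SQSTM1, with r of 0.998 to 0.999. EPHX1, an epoxide hydrolase, had 43.6 ± 1.63 CPM in young, 33.9 ± 2.14 in old and 409 ± 15.6 in ICM cells. SQSTM1, an autophagy adaptor, had 763 ± 15.2, 696 ± 35.2 and 4258 ± 120, and ALAS1, the first enzyme of heme synthesis, 45.6 ± 1.33, 40.3 ± 0.992 and 140 ± 6.22 CPM. EPHX1, HMOX1, OSGIN1 and SQSTM1 were also on the NRF2 list.

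For AKR1B1 the nearest were ALDOC, KYNU, DAB2, SLCO2B1 and CABYR (r 0.998 to 0.999), all with a higher mean in old than in young cells, as AKR1B1 had. KYNU, of tryptophan breakdown, had 3.86 ± 0.523 CPM in young, 6.15 ± 0.685 in old and 152 ± 5.88 in ICM cells, and ALDOC, an aldolase, 15.4 ± 0.599, 18.1 ± 0.832 and 67.5 ± 4.70 CPM. SLCO2B1, an organic anion transporter, was at 0 in the 3 young libraries and at 53.3 ± 3.35 CPM in ICM cells. For AKR1B10 they were F2RL2, ENDOV, AKR1B15, SQSTM1 and CYP19A1 (r 0.998 to 0.999). F2RL2, a thrombin receptor, had 74.1 ± 7.60 CPM in young, 58.0 ± 2.24 in old and 785 ± 13.8 in ICM cells.

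The promoters were searched for the core of the antioxidant response element to which NRF2 binds, TGACNNNGC, on both strands. The RefSeq promoter table on GRCh38.p14, with 250 bases before and 50 after each start, held 7 windows for 5 of the 6 genes (AKR1C1, AKR1C2, AKR1C3, AKR1C4 and AKR1B1). The motif was in 0 of these 7 windows and in 13.3% of all 35116 windows. In 197 windows a match also held TGACTCA, the site of AP-1 factors. These letters were thus not in those windows, which says nothing of sites elsewhere.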

How the data were processed

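Cells of 3 conditions were profiled by mRNA-seq and Ribo-seq, 3 replicates each, grouped by sample title. The deposited files give estimated counts for each gene symbol, which the authors split by feature class and left unscaled. Per the labels, the submitters' processing notes name STAR 2.6.0c, featureCounts and the build GRCh37. The treatment of reads with more than 1 match and the annotation release are not given in the sources used here.

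As in the study, Ribo-seq was counted in the CDS, and 5′ UTR, CDS and 3′ UTR reads were summed for mRNA-seq. Counts were rounded, filtered (filterByExpr), scaled by TMM and tested by the quasi-likelihood functions of edgeR 4.0.16 (R 4.3.3), all 9 libraries of an assay in one fit, two-sided, with Benjamini-Hochberg adjustment over all genes. Standard errors are the fitted change over the root of its F statistic. Translational efficiency was the interaction of assay and condition over 18 libraries with the lysate as a block, from the methods' statement that both libraries came from 1 lysate. Deviations of paired libraries from group means correlated with r from -0.0795 to 0.136, so the block rests on that statement and not on these values. The study used anota2seq, which was not used here. For sums, the 4 AKR1C rows (and AKR1B10 with AKR1B15) were replaced by their sum before the fit. The steps were also run on simulated counts. These held no outlying libraries, lysate pairing or reads shared between copies, so that run does not bear on those features.

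Named were the 6 genes, AKR1B15 and the sums; per list, for mRNA-seq in ICM against young and old against young, the 2 largest rises and falls among called genes averaging 5 CPM or more; and the 5 genes most like the AKR1C sum, AKR1B1 and AKR1B10. Some genes that this rule names are not reported here. Other genes were named after their values were seen, where a count was 5 or fewer. Members, lists, tests and alternatives were chosen with earlier results of these data known. Alternatives were DESeq2 1.42.0, RLE scaling, no filter, only the compared groups, CDS reads only, a replicate block or no lysate block, and leaving out libraries. UTR reads only was added after seeing the data. Coordinates and coding sequences came from GENCODE v44lift37 on GRCh37.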

Additional observations from a re-analysis of the deposited data

Results flagged for a closer look

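2 results lay outside the columns used above. The deposited tables also have a column named transcript, apart from those of the UTRs, the CDS and non-coding RNA, and what it counts is not given in the sources used here. Both genes were higher there in every mRNA-seq ICM library than in any mRNA-seq young library. AKR1B1 had 184 mRNA-seq reads there over the 3 ICM libraries, 48 to 70 per library, against 45 over the young (at most 22 in a library) and 33 over the old libraries. AKR1B10 had 24 mRNA-seq reads there in ICM libraries, 7 to 9 per library, against 0 in young and 0 in old libraries.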

How the results depend on the processing

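No result reversed while called. In mRNA-seq, 4 of the 6 genes were called between old and young cells in every leave-one-out fit and with the replicate block. The main fit called 32.4% of all tested genes up and 33.7% down, and AKR1C4, 1 of the 6, entered only through ICM libraries. The log2 change of the AKR1C sum was -0.76 with the replicate block (adjusted p = 6.10e-07, edgeR) and ran from -0.95 to -0.66 as each lysate was left out. With CDS reads only it was -0.61 (adjusted p = 0.00031, edgeR). In Ribo-seq, where 0 were called, restricting the fit to the compared groups, which left 3 genes to test, gave 1 (AKR1B1, log2 0.48, adjusted p = 0.0178, edgeR), and leaving out young replicate 1 and old replicate 2 gave 1 (the same gene), while leaving out any single lysate gave 0. The AKR1C sum ran from -0.42 to 0.93 in leave-one-out fits, and was at 0.17 with the replicate block (adjusted p = 0.877, edgeR). For translational efficiency, the number called was 0 to 1 (AKR1C1 without young replicate 1, log2 1.53, adjusted p = 0.0443, edgeR), the sum ran from 0.44 to 1.86 and reached 1.64 without young replicate 1, and with no lysate block it was 1.07 (adjusted p = 0.201, edgeR); the cause was not tested. The description of ICM against young cells for the AKR1C sum ran from 6.70 to 6.81 in mRNA-seq and from 4.78 to 6.10 in Ribo-seq as each lysate was left out, and was 4.35 in Ribo-seq with DESeq2. Correlations did not show a pairing of samples by replicate number across conditions (r of deviations -0.0555 to 0.103 in mRNA-seq and 0.00467 to 0.0557 in Ribo-seq). They did not show the pairing of the 2 libraries of a lysate either (-0.0795 to 0.136).

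Counts of called genes in the lists moved mostly in Ribo-seq, where NRF2 targets called between old and young cells numbered 11, and 4 with DESeq2. Depth limits Ribo-seq, since young and old libraries held at most 9.33 AKR1B10 reads each. Over all genes the ICM libraries held only 46239 to 225041 CDS reads each.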
